A study of Mus musculus with 8 samples.

Results

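Hdac4 and Col7a1 are genes that have been reported elsewhere as targets of miR-29, and they were taken from the deposited table by gene name: 2 genes of the 1428 that it lists. RNA sequencing compared 4 libraries of wild-type colon tumours (WT) with 4 libraries of colon tumours that arose in miR-29ab1Vilin-KO mice (KO), all of strain C57BL/6N. The design text describes tumours raised with the carcinogen azoxymethane followed by dextran sodium sulfate, an agent that damages the colon's epithelium, and does so without setting the groups apart. In KO mice the miR-29a and miR-29b-1 genes were deleted in the intestinal epithelium, where the villin promoter is active, so the other cells of the tumour keep them, and the separate miR-29b-2 and miR-29c genes were not targeted. The sources used here do not give age, sex or the number of animals behind the libraries. A p-value therefore measures only how these libraries vary, and part of that may be technical. The libraries are named WT1 to WT4 and KO1 to KO4 by the replicate numbers of their labels.

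A microRNA lowers the stability and translation of messenger RNAs that carry, mostly in the 3′ untranslated region (UTR), a match to its seed, the bases near its 5′ end. miR-29 is best known for holding down genes of the extracellular matrix, among them many collagens, and enzymes that modify DNA and chromatin. Hdac4 encodes a class IIa histone deacetylase, a regulator that shuttles between cytoplasm and nucleus, represses MEF2 transcription factors and works through HDAC3 and the NCoR and SMRT co-repressors. Col7a1 encodes the chain of type VII collagen, which forms the anchoring fibrils that tie an epithelial basement membrane to the tissue beneath it.

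The 3 mature miR-29 sequences are shown because they share the seed that the target sites are matched to. The capitals mark bases 2 to 8, and the sequences are those of RefSeq on GRCm38.p6, written 5′ to 3′. All 3 carry the same seed, so a site that fits a deleted member also fits the remaining miR-29c and miR-29b-2.
miR-29a-3p: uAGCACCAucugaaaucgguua
miR-29b-3p: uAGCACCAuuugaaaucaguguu
miR-29c-3p: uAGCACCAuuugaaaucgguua
Counted from the 5′ end, miR-29a-3p and miR-29c-3p differ at 1 position, C10U. The deleted genes lie on chromosome 6 of GRCm38.p6, where mature miR-29a-3p spans 31062673 to 31062694 and mature miR-29b-3p of Mir29b-1 spans 31063025 to 31063047, both on the minus strand. The table lists none of the miR-29 genes, so the deletion itself was not checked in these libraries.

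The longest annotated 3′ UTR of each gene (GENCODE M21, GRCm38) was searched on its sense strand for TGGTGCT, the match to the seed. Hdac4 held 2 such matches in 4568 bases of 3′ UTR, and Col7a1 held 2 in 363 bases. In Col7a1 the match that starts 83 bases after the stop codon continues with an A, the 8-base form TGGTGCTA, and neither match in Hdac4 does. Of 21020 genes with an annotated 3′ UTR, 13.1% held TGGTGCT and 2.85% held TGGTGCTA in the longest one, whose median length was 961 bases. A longer 3′ UTR has more room for a match, and these shares are not adjusted for the 4568 bases of Hdac4 or the 363 bases of Col7a1. The 4 sites are shown with their flanks and the match in capitals, 5′ to 3′ on the strand of the gene, because they are the sequences by which both genes count as candidate targets.
Hdac4 bases 84 to 90 of the 3′ UTR: ctcctgcgtcctgcctTGGTGCTctcttga
Hdac4 bases 395 to 401 of the 3′ UTR: caaacttgattaaaacTGGTGCTtaacatt
Col7a1 bases 83 to 90 of the 3′ UTR: cctgctgtgctccattTGGTGCTAgagttg
Col7a1 bases 315 to 321 of the 3′ UTR: cgaggctgtgataccaTGGTGCTgatggga
On GRCm38 the printed stretches of Hdac4 are chr1:91933250-91933279 and chr1:91932939-91932968 on the minus strand, and those of Col7a1 are chr9:108984579-108984608 and chr9:108984811-108984840 on the plus strand. These letters come from the C57BL/6J reference and not from the C57BL/6N mice, and a match is a description of sequence, not evidence of binding.

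Both genes were in the table because each had an unadjusted p below 0.05 in the authors' comparison, as every listed gene does, and neither passed an adjusted p of 0.05. They lay on opposite sides: Hdac4 was higher in KO tumours, by a small step seen in every library on the deposited scaling, and Col7a1 was lower on average, by a large step that WT1 and WT2 did not share. Of the listed genes 58.1% are higher in KO and 41.9% lower. The deposited table holds 8 genes past the adjusted threshold, which is 0.56% of those listed and 0.04% of all genes that the adjustment covers. The adjusted p from DESeq2 in the authors' deposited table is 0.691 for Hdac4 and 0.70 for Col7a1. Because rows were kept for a low p, the values below describe the selected rows, and fold changes in such a list tend to be overstated.

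Hdac4 is annotated in the table as a protein-coding gene on the minus strand of chromosome 1 from 97051664 to 97301862, in the coordinates of the C57BL/6NJ strain annotation that its identifiers belong to. Its values are normalized counts, that is read counts divided by a size factor for each library. They were 617 in WT1, 661 in WT2, 725 in WT3 and 658 in WT4. They were 817 in KO1, 799 in KO2, 803 in KO3 and 803 in KO4. Every KO library lay above every WT library, and the lowest KO value exceeded the highest WT value by 74.4. Such a separation is common in this table: it holds for 41.3% of the genes listed higher and for 44.7% of all listed genes.

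The Hdac4 mean was 665.0 ± 44.8 in the WT tumours and 805.48 ± 7.59 in the KO tumours (SD, n = 4 each), a ratio of KO to WT of 1.21. In the authors' deposited table the log2 fold change is 0.28, with an unadjusted p of 0.0346. Of the 829 genes listed higher only 2 have a smaller fold change than Hdac4, and the median log2 fold change of the 829 is 1.00. The exact permutation test on log2 of the normalized count plus 1, two-sided over the 70 splits of 8 libraries into 4 and 4, gave p = 0.0286, which is the smallest that this design allows and describes a row already chosen for its p. Trimmed means of M-values (TMM) over the listed genes served as another scaling. It presumes that most genes do not differ, which does not hold for rows all kept for a low p. KO4 has the most reads over these rows, 2180787, at a deposited size factor of 1.02. TMM scaling moved the median log2 fold change of all listed genes by -0.16 and brought Hdac4 to a log2 fold change of 0.12. On that scale KO4 stood at 686, below WT2 at 688, and 3 of 4 KO libraries stayed above every WT library, with an exact permutation p of 0.143.

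On the deposited scaling the 4 KO values of Hdac4 had a smaller spread than counting error alone, and on the TMM scale they did not. Their SD was 7.59 as deposited, while the counting error of single libraries with 746 to 902 reads of this gene is 28.0 on the same scale. The deposited coefficient of variation was 0.943% in KO and 6.73% in WT. Of the 341 listed genes whose mean lies between 0.5 and 2 times that of Hdac4, none had a smaller coefficient of variation in KO, and their median was 18.1%. On the TMM scale the KO values had an SD of 62.1 and a coefficient of variation of 8.06%, and 32 of 342 listed genes of similar level had a smaller one. The narrow KO spread was thus seen on the deposited scaling only, and TMM over selected rows cannot say which scaling is right. A spread below counting error is no measure of the precision of the difference. With a spread shared across the listed genes, a DESeq2 refit of the reads gave a standard error of 0.096 for a log2 fold change of 0.28. Its 95% interval ran from 0.09 to 0.46, with an adjusted p of 0.327. That spread comes from rows kept for a low p, so the interval may be too narrow. The unadjusted p of this DESeq2 refit was 0.00397, against 0.0346 from DESeq2 in the authors' deposited table.

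Col7a1 is annotated in the table as a protein-coding gene on the plus strand of chromosome 9 from 113933492 to 113964807, in the same strain coordinates. It stood at 119.6 normalized counts in WT1, 86.3 in WT2, 441 in WT3 and 757 in WT4. It stood at 183 in KO1, 101 in KO2, 204 in KO3 and 37.2 in KO4. WT3 and WT4 lay above every KO library, while WT1 and WT2 lay below KO1 and KO3, so the groups overlapped. The WT libraries spanned 8.77-fold and the KO libraries 5.48-fold, against 1.18-fold and 1.02-fold for Hdac4.

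**Figure D1:**
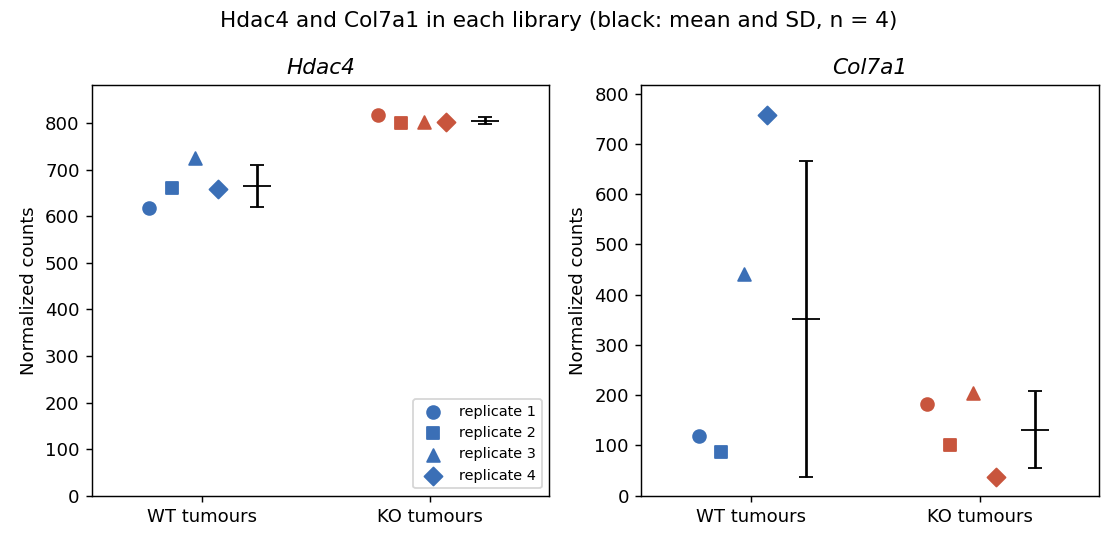
Normalized counts of Hdac4 (left) and Col7a1 (right) in the 4 WT (blue) and 4 KO (red) libraries, with the marker shape giving the replicate number, which does not pair libraries, and black bars giving mean and SD. The 4 KO values of Hdac4 lie between 799 and 817, above all WT values, whereas the Col7a1 values of WT1 and WT2 lie within the range of the KO libraries.

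The Col7a1 mean was 351 ± 314 in the WT tumours and 131 ± 76.9 in the KO tumours (SD, n = 4 each), a ratio of KO to WT of 0.374. In the authors' deposited table the log2 fold change is -1.42, with an unadjusted p of 0.0389, against a median of -0.88 among the 599 genes listed lower. Of those 599 genes, 49.4% have groups that do not overlap, and Col7a1 is not among them. The exact permutation test, two-sided, gave p = 0.257 for Col7a1, so the difference in means was not larger than the spread between libraries by that test. A DESeq2 refit of the reads gave a standard error of 0.73, with a spread that again comes from rows kept for a low p. Its 95% interval of the log2 fold change ran from -2.86 to 0.02, which includes no change. Without WT4 the ratio of means was 0.609, with a log2 fold change of -0.71 by edgeR, and without KO4 it was 0.463.

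The spread of Col7a1 was wide for a gene of its level. Its coefficient of variation was 89.6% in WT, larger than that of 246 of the 248 listed genes whose mean lies between 0.5 and 2 times its own, where the median was 22.7%. In KO it was 58.6%, against a median of 23.5%. The counting error of a single library was 18.8 in WT and 11.2 in KO, far below the SDs of 314 and 76.9.

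Divided by the gene lengths in the table, 15365 bases for Hdac4 and 10287 bases for Col7a1, the levels of both genes can be set side by side. Hdac4 stood at 43.28 ± 2.91 normalized counts per kb in WT and 52.423 ± 0.494 in KO (SD, n = 4 each). Col7a1 stood at 34.1 ± 30.6 per kb in WT and 12.76 ± 7.47 in KO (SD, n = 4 each). Hdac4 was the higher of the pair in 7 of 8 libraries, by 14.5-fold in KO4 and by 1.1-fold in WT3, and in WT4 it was at 0.582 times the level of Col7a1. Within groups both genes deviated from their means with a Pearson r of 0.41 over 8 libraries, on log2 of the normalized count plus 1. This description rests on few libraries. Hdac4 deviated mainly in WT1 and WT3, at 617 and 725 normalized counts, while its KO values spanned only 799 to 817.

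**Figure D2:**
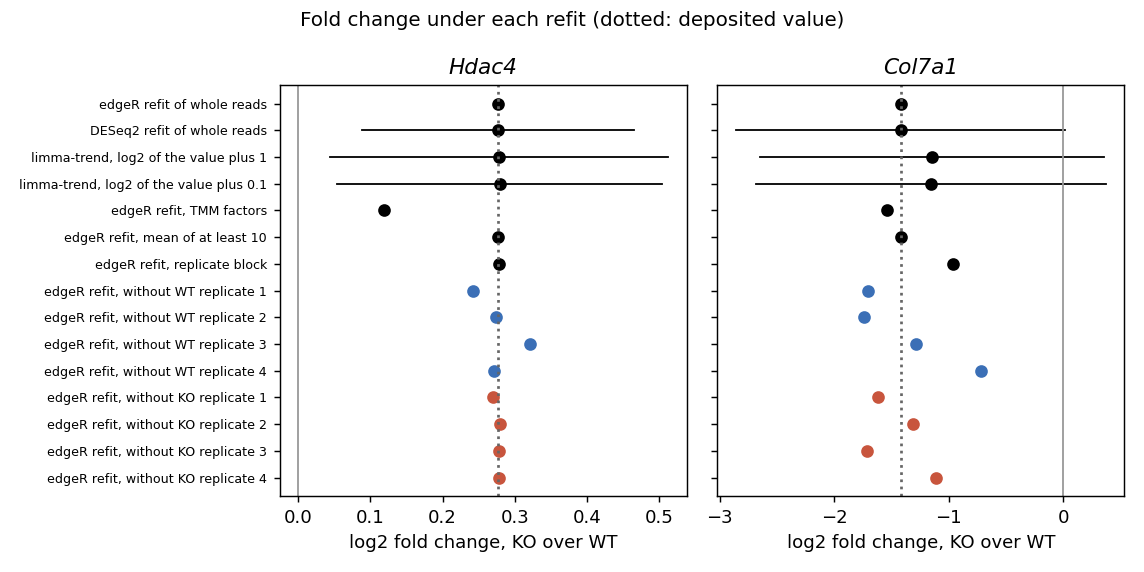
Log2 fold change of KO over WT for Hdac4 (left) and Col7a1 (right) under each refit of the reads or values, with bars for 95% intervals where the tool gives a standard error, blue for a WT library left out, red for a KO library left out, and a dotted line at the deposited value. Hdac4 ranges from 0.12 to 0.32 and Col7a1 from -1.74 to -0.71, each on its own side of 0 in every refit; the axes differ between the panels.

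A list of 66 genes reported as miR-29 targets was drawn up with earlier results of these data known, and it includes both genes. The table lists 9 of them (13.6%), against 7.06% of all genes that the authors' adjustment covers. Of the 9, 6 were higher and 3 lower in KO, none past the adjusted threshold, with a median log2 fold change of 0.62 against 0.48 over all listed genes, of which 58.1% were higher. Of these 9 genes 8 hold the seed match in the longest 3′ UTR, as do 50 of the 57 list members that the table does not hold.

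Beside Hdac4 the members higher in KO include Foxo3, a transcription factor restrained by insulin and growth factor signalling, Ccnd2, a G1 cyclin, and Klf4, a differentiation factor of the colonic epithelium. Foxo3 stood at 1301, 1405, 1291 and 1481 normalized counts in WT1 to WT4 and at 1698, 1719.99, 1811 and 3218 in KO1 to KO4. Every KO value of Foxo3 lay above every WT value, as in 41.3% of the genes listed higher. The authors' deposited table puts the log2 fold change of Foxo3 at 0.62, with an adjusted p from DESeq2 of 0.625. Ccnd2 stood at 4554, 4376, 7947 and 3499 in WT1 to WT4 and at 11961, 6925, 6344 and 8921 in KO1 to KO4. WT3 lay above KO2 and KO3 for Ccnd2, so its groups overlapped.

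KO4 was the highest KO library for Foxo3 and Klf4, and it is the highest KO library in 75.0% of all genes listed higher. Klf4 stood at 18058 in KO4 and between 2471 and 4627 in the other KO libraries, and between 1037 and 4307 in WT. The ratio of KO to WT means for Klf4 was 2.44 with all libraries and 1.18 without KO4. For Foxo3 it was 1.54 with all libraries and 1.27 without KO4. For Hdac4 the deposited KO4 value, 803, lay between those of other KO libraries, and the ratio was 1.21 with or without KO4, although on the TMM scale KO4 was its lowest KO library, at 686. Markers of B cells, taken as a sum, were also highest in KO4. All 9 of the list are in the table, and so were kept for a low p, against 7.06% of all genes. Their summed level was 51.4 to 193 normalized counts in WT, 143 to 669.8 in KO1 to KO3 and 2266 in KO4. The part of B cells in these differences was not tested.

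The listed targets that were lower, beside Col7a1, are Pxdn, a peroxidase that cross-links type IV collagen, and Eomes, a T-box transcription factor of lymphocytes. Pxdn stood at 428, 790.0, 1767 and 888 normalized counts in WT1 to WT4 and at 584, 342, 789 and 159 in KO1 to KO4, with overlapping groups. Eomes stood at 25.4 ± 3.4 in WT and 12.87 ± 6.81 in KO (SD, n = 4 each). Its KO values all lay below every WT value, as in 49.4% of the genes listed lower. Of 11 T cell markers 3 are listed (27.3%, against 7.06% of all genes). Their summed level lay on the other side, at 59.3 to 78.1 in WT and 127 to 159 in KO, and these markers too were kept for a low p. Pxdn holds the 8-base match once in its longest 3′ UTR, as Col7a1 does. Of the collagen genes on the target list, Col7a1 is the only one that the table holds.

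**Figure D3:**
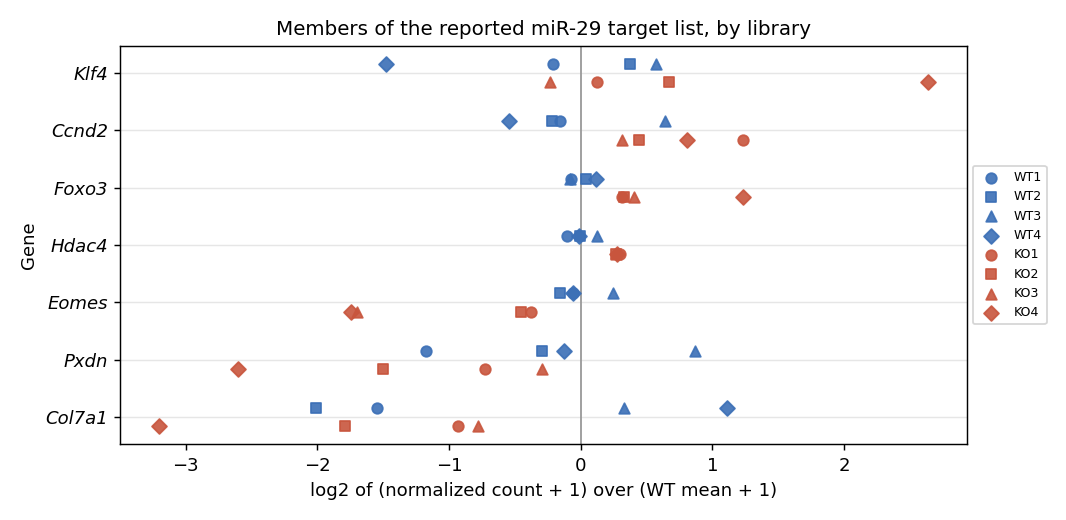
Log2 ratio of each library to the WT mean, after adding 1 to both, for 7 of the 9 listed members of the reported miR-29 target list, with 1 row per gene, WT in blue and KO in red. The Hdac4 points, on the deposited scaling, form 2 tight groups, the KO4 points (red diamonds) lie farthest to the right among the KO points in Klf4 and Foxo3, and the Col7a1 points of both groups are widely spread, from 37.2 normalized counts in KO4 to 757 in WT4.

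Around Hdac4, 8 of 43 genes for class IIa deacetylases, their partners and the kinases that move them out of the nucleus are listed (18.6%, against 7.06% of all genes), 7 higher and 1 lower in KO. Their median log2 fold change was 0.39, below the 0.48 over all listed genes, of which 58.1% were higher. None passed the adjusted threshold. The list includes Hdac4 and was drawn up with earlier results of these data known, so its share was not tested against that of all genes. Hdac4 was the only class IIa enzyme listed, and Hdac5, Hdac7 and Hdac9 are not in the table. Ncor1, a scaffold of the co-repressor complex through which class IIa enzymes act, was at a mean normalized count of 3465 ± 389 in KO and 2612 ± 418 in WT (SD, n = 4 each), with overlapping groups. Hdac3, the catalytic deacetylase of that complex, lay on the other side, at 2252, 2381, 2118 and 2176 in WT1 to WT4 and at 1729.6, 2033, 1686 and 1562 in KO1 to KO4. Every KO value of Hdac3 lay below every WT value, as in 49.4% of the genes listed lower. In the authors' deposited table the log2 fold change is 0.41 for Ncor1, with an adjusted p from DESeq2 of 0.687, and -0.35 for Hdac3, with 0.649.

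The kinases listed were all higher in KO. Sik2, a salt-inducible kinase that phosphorylates class IIa deacetylases, had 126, 147, 198 and 118 normalized counts in WT1 to WT4 and 301, 223, 269.6 and 211 in KO1 to KO4, and the groups did not overlap. Prkd2, a protein kinase D, had 534.1 ± 61.2 in WT tumours and 692.4 ± 97.2 in KO tumours. Mark2, a polarity kinase, had 3259.6 ± 388 in WT tumours and 4133 ± 353 in KO tumours, and Camk2b, a calcium and calmodulin-dependent kinase, had 173.0 ± 35.9 in WT tumours and 395 ± 251 in KO tumours (SD, n = 4 each). Groups did not overlap for Prkd2, whose lowest KO value was 581 and highest WT value 579. A separation like that of Sik2 and Prkd2 holds for 41.3% of the genes listed higher. Groups overlapped for Mark2 and Camk2b, and the ratio of means of Camk2b was 2.28 with all libraries and 1.6 without KO4. Myocd, a co-activator of smooth muscle genes, was the eighth, at 12.61 ± 9.02 in KO and 2.97 ± 2.86 in WT, with overlapping groups and a ratio of means of 4.25, or 7.48 without WT1.

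Among 22 other histone deacetylases and their complex members, 2 are listed (9.09%, against 7.06% of all genes), Hdac2 lower and Rcor1 higher. Hdac2, a class I enzyme, had a mean normalized count of 2716 ± 228 in WT tumours and 2029 ± 354 in KO tumours (SD, n = 4 each). Its groups did not overlap, as for 49.4% of the genes listed lower. Rcor1, a co-repressor scaffold, had 326.9 ± 84.8 in WT tumours and 519 ± 155 in KO tumours, with overlap. Hdac4 thus lay above WT in KO tumours while the class I enzymes Hdac2 and Hdac3 lay below, and whether these differences differ from each other was not tested. Of 18 genes known to be regulated by MEF2, Fos and Klf4 are listed (11.1%, against 7.06% of all genes). Both were higher, as are 58.1% of listed genes, with Fos at 3071 ± 588 in KO and 1909 ± 296 in WT (SD, n = 4 each).

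Around Col7a1, 4 of 36 genes of anchoring fibrils, hemidesmosomes and epithelial basement membrane are listed (11.1%, against 7.06% of all genes), 2 higher and 2 lower, with none past the adjusted threshold. This list includes Col7a1 and was also drawn up with earlier results known, so these shares were not tested against each other. The other lower gene was Col4a4, a chain of type IV collagen, at 4.61 ± 1.15 normalized counts in KO and 12.96 ± 6.39 in WT. The higher genes were Plec, which links hemidesmosomes to keratin filaments, at 14266 ± 793 in KO and 9657 ± 2079 in WT, and Dag1, the laminin receptor dystroglycan, at 4867 ± 332 in KO and 3566 ± 593 in WT (SD, n = 4 each). Groups did not overlap for these 3 genes, as for 44.7% of all listed genes. Col17a1, a hemidesmosome collagen, and the laminin chains Lama3 and Lamb3 are not in the table.

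Of 34 further collagen chains, Col13a1, a transmembrane collagen, was the only one listed (2.94%), at 9.99 ± 9.47 normalized counts in KO and 32.8 ± 25.7 in WT (SD, n = 4 each), with overlapping groups. Its ratio of KO to WT means was 0.305 with all libraries, 0.171 without KO1 and 0.482 without WT4. Of 41 genes of collagen processing and matrix turnover, 3 are listed (7.32%, close to the 7.06% of all genes), all lower, as are 41.9% of listed genes: the matrix metalloproteinases Mmp3 and Mmp13, and Loxl4, a lysyl oxidase that cross-links collagen. Mmp3 had the smallest adjusted p of all listed matrix genes, 0.0717 from DESeq2 in the authors' deposited table, with a log2 fold change of -2.70. It stood at 55.4, 48.3, 418 and 415 in WT1 to WT4 and at 46.3, 34.3, 39.1 and 24.5 in KO1 to KO4. Mmp13 stood at 628, 999, 6851 and 3097 in WT1 to WT4 and at 818, 847, 663 and 44.0 in KO1 to KO4, with overlapping groups and a ratio of KO to WT means of 0.205, or 0.376 without WT3.

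WT3 and WT4 held the 2 highest of the 8 values for Col7a1, the gene from which this order was read. They did so too for Col13a1, Mmp3 and Mmp13, which with Col7a1 are 4 of the 6 genes listed lower from the matrix lists. Pxdn, of the target list, also had its 2 highest values in WT3 and WT4. Among all 599 genes listed lower, 83 (13.9%) show that order, and a difference between these shares was not tested. Col4a4 and Loxl4 did not show the order: WT1 was highest for Col4a4, at 22.4, and Loxl4 stood at 51.6 in WT4 and 32.4 in WT3. WT1 and WT2 lay within or near the range of the KO libraries for Mmp3 and Mmp13, as they did for Col7a1. In Col7a1 and Col13a1 WT4 was also the highest and KO4 the lowest of all 8 libraries, an order found in 201 of the 599 genes (33.6%).

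**Figure D4:**
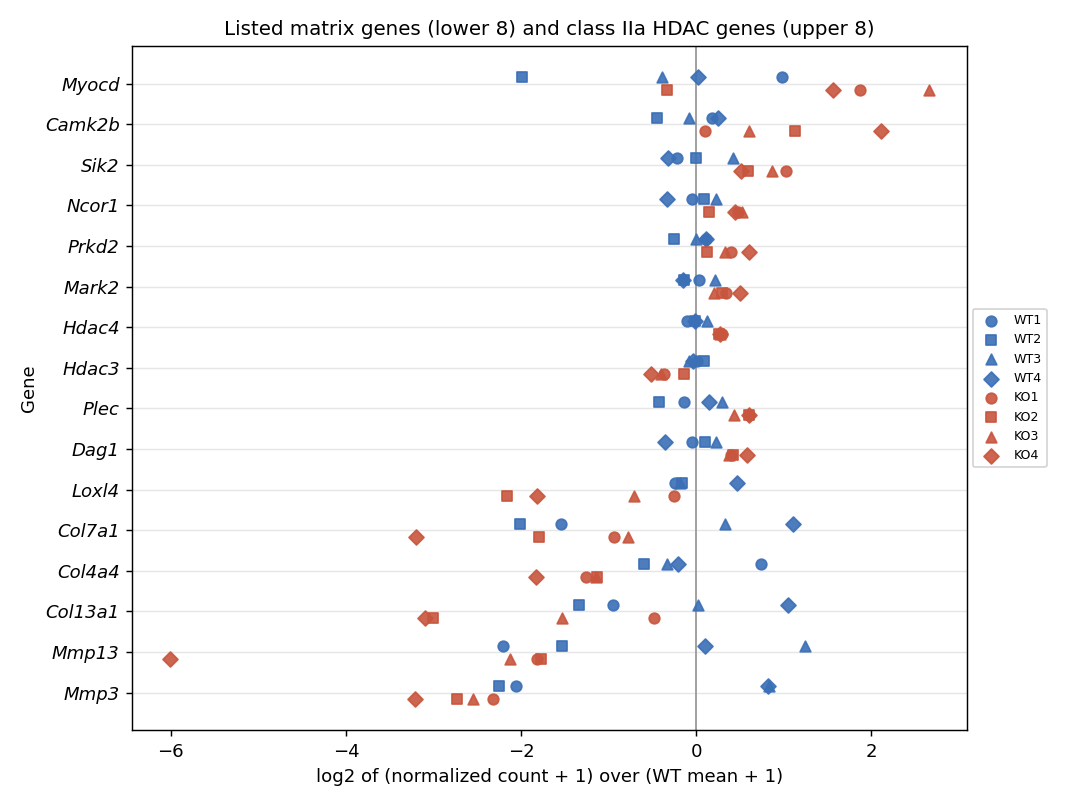
Log2 ratio of each library to the WT mean, after adding 1 to both, for the listed matrix genes (lower 8 rows) and the listed genes around class IIa deacetylases (upper 8 rows), WT in blue and KO in red. In Col7a1, Col13a1, Mmp3 and Mmp13 the WT points split into a higher pair, WT3 and WT4, and a lower pair within or near the range of the KO points. The KO points are themselves widely spread in Col7a1, Col13a1 and Mmp13, whereas the Hdac4 and Hdac3 points stay within 1 log2 unit.

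Markers of cell types were read beside these results, since in whole tumours fewer cells of a type and less RNA per cell cannot be told apart. Only markers kept for a low p are listed, so sums over them differ between the groups by selection. Such sums do not measure how much of a cell type is present. Of 16 epithelial markers 2 are listed (12.5%, against 7.06% of all genes), Cdhr5 and Lgals4, both surface or secreted proteins of the colonic epithelium. Their summed level, mostly Lgals4, was 19458 to 39334 normalized counts in WT and 40394 to 89049 in KO. Their sum was lowest in WT4 and highest in KO4, the libraries in which Col7a1 was highest and lowest. However, WT3, which also lay above every KO library for Col7a1, had the highest sum of the WT libraries. Of 15 fibroblast markers 2 are listed (13.3%), Dpt and Mfap5. Their sum, mostly Dpt, was 65.8 to 129 in WT, lowest in WT4 and highest in WT3. In KO the sum was 130 to 201, highest in KO4. Of 9 myeloid markers 2 are listed (22.2%), with a sum of 1038 to 1296 in WT and 67.5 to 742 in KO, lowest in KO4. Almost all of this sum came from the more abundant gene, so it describes that gene and not myeloid markers at large. Across KO1 to KO4, whose epithelial sums ran from 40394 to 89049, the deposited Hdac4 values lay between 799 and 817, and on the TMM scale between 686 in KO4 and 818 in KO1. None of 16 markers of squamous and anal epithelium, a tissue rich in type VII collagen, is listed. The part of these cell types in the Col7a1 and Hdac4 differences was not tested.

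The genes whose pattern over the 8 libraries was most like that of each gene were sought among 1192 listed genes with a mean of at least 10 normalized counts, by Pearson r of log2 of the normalized count plus 1. Every listed gene differs between the groups to some degree, so r was also taken on deviations from the group means. Picking the highest r of 1192 genes over 8 libraries gives high values by the choice itself. The KO deviations of Hdac4 are also smaller than counting error on the deposited scaling. For Hdac4 the nearest were Mlph, a melanophilin that tethers vesicles to myosin, with r = 0.98, Robo2, a receptor for Slit guidance cues, with r = 0.98, and 4930432K21Rik, with r = 0.97. On deviations the nearest to Hdac4 were Rapgef2, an exchange factor for Rap, with r = 0.91, Robo2, with r = 0.89, and Mlph, with r = 0.87. Mlph stood at 1337, 1408, 1718 and 1549.9 normalized counts in WT1 to WT4 and at 2169, 2207, 2219.95 and 2045 in KO1 to KO4, so it shared with Hdac4 a WT maximum in WT3 and a narrow KO range on the deposited scaling.

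For Col7a1 the nearest were Kcnj8, a subunit of ATP-sensitive potassium channels, with r = 0.97, Dmrta2, a transcription factor, with r = 0.94, and a lincRNA without a symbol, with r = 0.92. On deviations Kcnj8 had r = 0.98, the lincRNA 0.96 and Nek4, a kinase, 0.93. Kcnj8 stood at 130.3, 95.5, 207 and 268 normalized counts in WT1 to WT4 and at 115, 111, 123 and 62.6 in KO1 to KO4, with WT3 and WT4 highest and KO4 lowest, as for Col7a1. Nek4 followed Col7a1 within groups only, since the authors' deposited table has it on the other side, with a log2 fold change of 0.55. Within 500 kb of each gene the table lists 1 other gene: the clock gene Per2, higher in KO with a log2 fold change of 0.98, near Hdac4, and Tma7, lower with -0.57, near Col7a1. In RefSeq a lncRNA overlaps Hdac4 and the microRNA gene Mir711 lies within Col7a1, and the sources used here do not say whether reads were assigned by strand.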

How the data were processed

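RNA from colon tumours was isolated with TRIzol and libraries came from a strand-marking NEBNext kit, per the labels' protocols. HISAT2, DESeq2 (no versions) and the human build GRCh38 are named in the submitters' processing notes, whereas the gene identifiers belong to the mouse C57BL/6NJ annotation. The deposited table holds a normalized signal per library (counts over a size factor), group means, and the authors' deposited log2 fold change, p-value and adjusted p-value. Every row has an unadjusted p below 0.05, so the design's case for a selected table was used: the authors' values are the main ones. The adjusted p-values imply 19985 genes tested. Signals times 1 factor per library (0.933 to 1.12) fell within 0.001 of whole reads for 100% of values. These reads, 1202677 to 2180787 per library over the listed genes alone, were refitted with edgeR 4.0.16 and DESeq2 1.42.0, beside limma 3.58.1 on log2 values, in R 4.3.3, adjusted by Benjamini-Hochberg over 19985 genes. The spread in these refits comes from selected genes. The sources used here do not give total depth.

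Libraries of 1 group differed beyond counting noise (chi-square per degree of freedom at least 19.8), so none were merged. Both genes and all lists were chosen with earlier results of these data known. Named genes are Hdac4, Col7a1, the listed members of the pathway lists, at most 3 of each other list, and the 3 genes of nearest pattern by each measure; members of the smooth muscle, endothelial, neural, lymphoid, myeloid and stress lists, Fos and Myocd apart, are not named, some list members that count in the totals are not reported here, and Per2, Tma7 and Mir711 were named after their values or places were seen. The longest 3′ UTR of a protein-coding GENCODE M21 transcript was searched for seed matches, and seed sequences came from RefSeq.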

Additional observations from a re-analysis of the deposited data

Results flagged for a closer look

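Among 37 named genes, 74 groups of 4 libraries were searched for 1 library far from the other 3, and 8 such libraries were found. Chance would mark about 5% of groups if they were independent. These genes were selected and share their libraries, so the count cannot be judged against that rate. KO4 stood above the other KO libraries for Klf4, at 18058 normalized counts against 4627 for the next, for Foxo3, at 3218 against 1811, and for Cdhr5, at 18826 against 8335. KO3 stood below the others for Plec, at 13078 against 14637. WT3 stood above the other WT libraries for Rcor1, at 453 against 295, and for 4930432K21Rik, at 20.2 against 11.3. WT4 did so for Loxl4, at 51.6 against 32.9, and for Dmrta2, at 355 against 81.9. No library of Hdac4 or Col7a1 met this criterion.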

How the results depend on the processing

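Hdac4 stayed higher and Col7a1 lower in KO, and neither passed an adjusted p of 0.05, in all 15 refits of each. The adjusted p ran from 0.327 to 1 for Hdac4 and from 0.769 to 1 for Col7a1. Leaving out 1 library gave log2 fold changes from 0.24 to 0.32 for Hdac4 and from -1.74 to -0.71 for Col7a1 by edgeR, the latter without WT2 and without WT4. The exact test of Hdac4, with alternatives chosen after seeing the data, gave log2 differences of 0.24 to 0.32 without a WT library, with p = 0.0286, of 0.27 to 0.28 without a KO library, with p = 0.0571, and a difference of 0.12 with an exact p of 0.143 under TMM scaling. TMM scaling, also chosen after seeing the data, gave coefficients of variation of 4.24% in WT and 8.06% in KO for Hdac4, and of 91.2% and 62.4% for Col7a1. The number of listed genes past an adjusted p of 0.05 is 8 in the deposited table, 37 in the DESeq2 refit, and 0 in the edgeR refit (1112 at an unadjusted p below 0.05), in limma-trend (1027) and in edgeR with the replicate block (559). With the replicate block the log2 fold change was 0.28 for Hdac4 and -0.97 for Col7a1, but same-numbered libraries share only a number: the correlation of their deviations ran from -0.29 to 0.098. Hdac4 held 0 matches of 8 bases and 5 of 6 bases, and Col7a1 held 1 and 2. The list of rows selected by p and 4 libraries a group limit what these values can show.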
